A study of Rattus norvegicus with 232 samples.

Results

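A set of 8 genes of cholesterol synthesis and its feedback control was followed through the brains of inbred rats. The genes were chosen by name from the 20859 of the table: Hmgcs1, Sqle, Insig1, Idi1, Fdft1, Dhcr7, Lss and Msmo1, and each had a value in every library. The table held 214 libraries of rRNA-depleted total RNA, averaged to 197 animals of 74 strains of the Hybrid Rat Diversity Panel. The titles call every animal untreated, the labels give the sex as male for 135 of the libraries and give none for the other 79, and the tissue is labelled whole brain, of which the study's methods say that a sagittal side was used. The HXB/BXH recombinant inbred family, bred from SHR/OlaIpcv and BN-Lx/Cub, gave 88 animals of 30 strains. The FXLE/LEXF family, bred from F344/Stm and LE/Stm, gave 43 animals of 19 strains. Other inbred strains, the 4 parental strains included, gave 66 animals of 25 strains. Animals of an inbred strain are near-identical in genotype, and the recombinant strains of a family carry mosaics of the same parental genomes. Of the 74 strains 54 were measured in 3 animals, 15 in 2 and 5 in 1. Nothing in the labels ties animals of a strain to separate litters or cages. The values were read, from their range, as a log2 scale set by the authors, so that a difference of 1 stands for a doubling. No counts came with them, so the depth behind each value is unknown and the number of animals limits the precision. Neuronal markers averaged 13.85 to 14.28 over the libraries, which goes with the tissue label. The library of the only LE/Stm animal stood apart, with a mean of 17.40 over 9 liver genes against a median of 7.80. The mean of 3 Y-linked genes was low in the 3 animals of LEW/Crl (9.35 to 9.46) and in animal 2 of HXB17/Ipcv (9.06), against a median of 10.51 over all libraries but those of LEW/Crl, while all 4 of these animals are labelled male. Without LE/Stm and LEW/Crl the counts of called genes and the median correlations over strains given further on were as reported but for 1 of 2 strain effects in the inbred strains and 19 of 20 calls of single strains, and F344/Stm minus LE/Stm cannot be fitted without its 1 LE/Stm animal.

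The brain is walled off from the cholesterol of the blood and makes its own, and much of it goes into the myelin that oligodendrocytes wrap around axons. The pathway starts from acetyl-CoA, passes through mevalonate to isoprenoid units, joins these to squalene, closes squalene to lanosterol and trims lanosterol to cholesterol. Its genes are switched on by the transcription factor SREBP2, the product of Srebf2, which Scap carries to the Golgi when sterols are low and which the Insig proteins hold back when sterols are high. SREBP2 works beside NF-Y, which binds CCAAT boxes, and Sp1, which binds GC boxes.

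RefSeq promoters on GRCr8 were matched by symbol for 6 of the 8 genes, and their 250 bases before the start were searched on both strands. Sqle and Fdft1 are named only. The motif CCAAT was found in 5 of the 6, against 34% of 33469 promoters of the same length. The GC box, searched as GGGCGG, was likewise found in 5 of the 6, against 30.5%. A form of the sterol regulatory element, searched as TCACNCCAC, was found in 0 of the 6 and in 0.974% of all promoters, which says only that these letters were not in this window. The promoters of 4 genes that the values below turn on are shown, with the CCAAT motif of either strand in capitals.
Hmgcs1, chr2:53382054-53382303, plus strand: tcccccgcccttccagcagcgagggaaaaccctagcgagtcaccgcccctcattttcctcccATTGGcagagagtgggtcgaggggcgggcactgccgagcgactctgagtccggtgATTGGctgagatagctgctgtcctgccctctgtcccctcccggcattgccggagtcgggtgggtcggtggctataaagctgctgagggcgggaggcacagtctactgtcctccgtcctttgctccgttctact
Idi1, chr17:66547525-66547774, minus strand: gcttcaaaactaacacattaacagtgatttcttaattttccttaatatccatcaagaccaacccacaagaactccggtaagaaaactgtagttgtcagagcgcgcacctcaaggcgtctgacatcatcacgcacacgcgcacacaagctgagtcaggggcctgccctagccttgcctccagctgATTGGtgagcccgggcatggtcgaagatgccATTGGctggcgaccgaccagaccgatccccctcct
Lss, chr20:12118231-12118480, minus strand: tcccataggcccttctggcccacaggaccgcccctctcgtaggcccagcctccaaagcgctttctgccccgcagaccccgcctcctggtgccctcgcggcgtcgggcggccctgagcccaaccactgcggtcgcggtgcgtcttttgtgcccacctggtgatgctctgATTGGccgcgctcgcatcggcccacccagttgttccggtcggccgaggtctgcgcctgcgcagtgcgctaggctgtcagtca
Dhcr7, chr1:208444184-208444433, plus strand: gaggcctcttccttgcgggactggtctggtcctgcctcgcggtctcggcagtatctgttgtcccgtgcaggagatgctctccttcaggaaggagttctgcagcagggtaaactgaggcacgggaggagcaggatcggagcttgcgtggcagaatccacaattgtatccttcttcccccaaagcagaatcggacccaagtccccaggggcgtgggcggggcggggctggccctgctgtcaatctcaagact
Msmo1 held 3 such motifs, Hmgcs1 and Idi1 2 each, Insig1 and Lss 1 each and Dhcr7 0. A match describes the letters and is not a measured binding site.

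The first question was how far the level of each gene went with the strain. A strain effect was called in 6 of the 8 genes at an FDR of 5% (limma moderated F-test over 74 strains), beside 37.3% of all genes, and Lss stood far above the other 7. The share of variance between strains (R2) was 0.802 for Lss, above that of 98.5% of genes. The other 7 lay between 0.443 and 0.544, and the median of all genes was 0.451. With 2 or 3 animals a strain an R2 of some size arises without any strain effect. The median of all genes is not that level, since 37.3% of these genes were themselves called. It shows only where the 8 genes lie among the others.

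Hmgcs1, the synthase that makes HMG-CoA at the entry of the pathway (rn6 chromosome 2, 52427413 to 52445055, plus strand), ran from 13.46 through a median of 13.86 to 14.22 over the 197 animals (R2 0.527, adjusted p = 0.00480 by limma). Idi1, which isomerises the isoprenoid unit (rn6 chromosome 17, 57976268 to 57984036, minus strand), ran from 9.57 through a median of 10.39 to 11.43 (R2 0.443, adjusted p = 0.114, not called). Its SD between animals of a strain, 0.275, was above that of 94.7% of genes. Of the 8 genes Idi1 was thus the one whose animals of the same strain lay farthest apart.

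Fdft1, the squalene synthase (rn6 chromosome 15, 46316771 to 46367302, minus strand), ran from 11.87 through a median of 12.10 to 12.36 (R2 0.529, adjusted p = 0.00991). Its SD between animals of a strain was 0.0830, the smallest of the 8 and below that of all but 4.26% of genes. Sqle, the epoxidase that acts on squalene (rn6 chromosome 7, 99609191 to 99624732, plus strand), ran from 10.61 through a median of 10.96 to 11.28 (R2 0.529, adjusted p = 0.00510). The levels of these genes differed little between animals beside those of Idi1. Lss, the cyclase that closes squalene epoxide to lanosterol (rn6 chromosome 20, 12799452 to 12876954, minus strand), ran from 10.26 through a median of 10.83 to 11.27 (R2 0.802, adjusted p = 4.9e-19). Its strain means had an SD of 0.197 while animals of a strain had one of 0.118, and in no other of the 8 genes did the strain means spread more widely than the animals within strains.

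Msmo1, which takes methyl groups off the sterol ring (rn6 chromosome 16, 26739389 to 26875973, plus strand), ran from 12.13 through a median of 12.50 to 12.89 (R2 0.473, adjusted p = 0.0541, not called). Dhcr7, the reductase of the last step (rn6 chromosome 1, 217018916 to 217037780, plus strand), ran from 9.87 through a median of 10.19 to 10.61 (R2 0.509, adjusted p = 0.0128). Insig1, the feedback protein (rn6 chromosome 4, 342302 to 372953, plus strand), ran from 11.49 through a median of 11.74 to 12.05 (R2 0.544, adjusted p = 0.00330). Leaving out the animals numbered 1, 2 or 3 took the count of 6 called genes to 3, 1 and 2. This stood beside 15.9%, 14.4% and 29.1% of all genes, and Lss was called each time. Between the lowest and the highest mean of the 69 strains with 2 or more animals the genes spanned from 1.25-fold for Fdft1, 11.94 to 12.26, to 1.93-fold for Idi1, 9.93 to 10.87.

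Within HXB/BXH the strain effect was called in 3 of 8 genes, beside 19.1% of all genes. These were Lss (R2 0.879, adjusted p = 1.3e-15 by limma), Sqle (R2 0.558, adjusted p = 0.0122) and Hmgcs1 (R2 0.529, adjusted p = 0.0251). Only Lss was still called when the animals numbered 1, 2 or 3 were left out, beside 8.04%, 9.31% and 8.26% of all genes. In the other inbred strains 2 of 8 were called, beside 19.3%, Lss (R2 0.653, adjusted p = 0.00494 by limma) and Fdft1 (R2 0.647, adjusted p = 0.0408). Leaving out the animals numbered 1, 2, 3 or 4 took that count to 1, 0, 0 and 1, beside 10.4%, 5.75%, 11.5% and 17.2% of all genes. Without LEW/Crl the count was 1, with Fdft1 lost. In FXLE/LEXF 0 of 8 were called, beside 4.61% (limma, 1 of 8 at an unadjusted p under 0.05), with R2 values from 0.379 to 0.667 against a median of 0.516 over all genes. Whether a gene's strain effect differed between families was not tested.

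Lss had the highest R2 of the 8 genes in HXB/BXH. Its 30 strain means ran from 10.43 in BXH13/Cub to 11.23 in HXB29/Ipcv, which is 1.75-fold. In HXB29/Ipcv the 3 animals measured 11.24, 11.24 and 11.20, and in BXH13/Cub they measured 10.54, 10.33 and 10.40. The animals of these strains did not overlap, but the strains were picked as the highest and the lowest of the 30, so this adds no support. In the order of the means, 17 strains lay at or below 10.84 and 13 at or above 10.95, a step of 0.115 where the median step was 0.0137. Of the parents, SHR/OlaIpcv lay below this step with 10.57 and 10.64 in its 2 animals, and the mean of BN-Lx/Cub, with 10.75, 10.97 and 10.95 in 3 animals, fell inside it. The step was found after the values were seen and is a description.

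**Figure D1:**
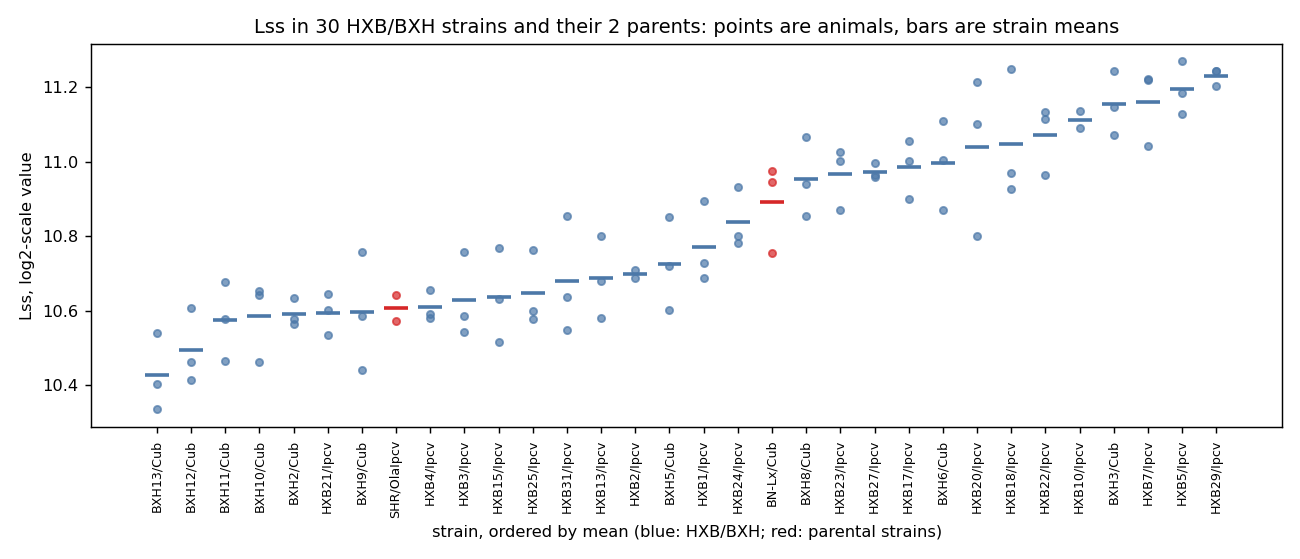
Lss (log2-scale value, vertical axis) in each animal (points) of 30 HXB/BXH strains and their 2 parental strains, ordered by strain mean (bars). The means of the HXB/BXH strains climb from 10.43 to 11.23, with a step from 10.84 to 10.95.

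Genes near Lss were then compared with it over the same 30 strain means. Of 68 genes within 5 Mb on rn6 whose symbol was in the table, 8 had an absolute r with Lss over 0.5 (11.8%), against 1.47% of 11326 genes on other chromosomes. Of these neighbours the closest in pattern was Ybey, 0.118 Mb away from start to start, with r of 0.75. It overlaps RGD1564149, which had r of 0.63, and the 2 cannot be counted as separate genes with certainty. Cbs, which makes cystathionine, had r of -0.70 at a distance of -2.48 Mb, towards lower coordinates. These neighbours were named after their values were seen. The share of near genes over 0.5 was also the higher one for Idi1 (44% against 21.8%), Sqle (32% against 17.0%) and, slightly, Dhcr7 (1.48% against 1.22%). For Hmgcs1, Insig1, Fdft1 and Msmo1 it was the lower one. Neighbouring genes share chromosome segments within the family, and all points share libraries and scaling.

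Against the mean of all other strains, 20 of the 592 pairs of a strain and a gene were called (limma, FDR 5% within each strain), beside 1.6% of all such pairs, and 12 of the 20 were Lss. In strains with 2 or more animals there were 19 calls, 11 of them Lss. Lss was called lower in BXH10/Cub, BXH11/Cub, BXH12/Cub, BXH13/Cub and SHRSP/A3NCrl, and higher in BXH3/Cub, HXB5/Ipcv, HXB7/Ipcv, HXB10/Ipcv, HXB22/Ipcv and HXB29/Ipcv. The 2 animals of SHRSP/A3NCrl, the stroke-prone hypertensive strain, measured 10.44 and 10.26, the lowest strain mean of all (-0.48 ± 0.08, SE, adjusted p = 7.1e-05). The remaining call, lower in BUF/MnaMcwi, rests on a single animal at 10.36 and on the spread of other strains, so it has no replicate check. With batch as covariates the 5 lower calls in strains with 2 or more animals were made again and none of the 6 higher ones was. The 20 pairs became 10, 4 and 8 without the animals numbered 1, 2 or 3, beside 0.577%, 0.795% and 1.08% of all such pairs.

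BXH13/Cub was called for 4 of the 8 genes, all lower, beside 1.99% of all genes called lower there. Its 3 animals measured 13.48, 13.61 and 13.59 for Hmgcs1, against a median of 13.86 over all animals (-0.30 ± 0.08, SE, adjusted p = 0.0118 by limma). For Sqle they measured 10.69, 10.65 and 10.71 (-0.27 ± 0.07, adjusted p = 0.0145). For Insig1 they measured 11.55, 11.57 and 11.49 (-0.21 ± 0.06, adjusted p = 0.0163). Every animal of the strain was thus below the median of all animals in these genes, as it was in Lss (-0.40 ± 0.07, adjusted p = 3.0e-05). The mean of 10 oligodendrocyte markers was 13.65, 13.58 and 13.68 in these animals, against a median of 14.05 over strains, and its part in the result was not tested strain by strain. In bulk tissue fewer cells of a type and less RNA per cell cannot be told apart. With batch as covariates only Lss of the 4 was called.

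Single genes stood out in a few further strains. The 3 animals of HXB17/Ipcv measured 12.19, 12.19 and 12.23 for Msmo1, the lowest mean of the 74 strains (-0.29 ± 0.08, SE, adjusted p = 0.0301 by limma, beside 1.05% of all genes called lower). Hmgcs1 in the same animals, at 13.86, 13.71 and 13.88, lay around the median of all animals. In a fit without animal 2 and without LEW/Crl the difference was -0.29 ± 0.10 and was not called (adjusted p = 0.176 by limma). The 3 animals of BXH5/Cub measured 10.60, 10.33 and 10.47 for Dhcr7, the highest mean of the 74 strains (0.29 ± 0.08, adjusted p = 0.0216, beside 0.757% called higher). With batch as covariates neither the Msmo1 nor the Dhcr7 call was made.

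Idi1 was called lower in HXB1/Ipcv, with 9.75, 9.81 and 10.22 in its 3 animals (-0.48 ± 0.16, SE, adjusted p = 0.0376 by limma), beside 8.17% of all genes called lower. It was called higher in BN-Lx/Cub, with 11.43, 10.49 and 10.69 (0.48 ± 0.16, adjusted p = 0.0269), as was Sqle, with 11.21, 11.09 and 11.10 (0.19 ± 0.07, adjusted p = 0.0419), beside 11.6% called higher. Many genes were thus called in both strains, and in BN-Lx/Cub animal 1 lay far above the other 2 in Idi1.

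Among the 69 strains with 2 or more animals, Hmgcs1 was lowest in BXH13/Cub (13.56 ± 0.07, SD, n = 3) and highest in HXB31/Ipcv (14.07 ± 0.09, SD, n = 3). Sqle was lowest in BXH13/Cub (10.68 ± 0.03, SD, n = 3) and highest in HXB5/Ipcv (11.17 ± 0.06, SD, n = 3), and Insig1 in BXH13/Cub (11.54 ± 0.04, SD, n = 3) and highest in SHR/OlaIpcv (11.90 ± 0.06, SD, n = 2). Idi1 was lowest in HXB1/Ipcv (9.93 ± 0.26, SD, n = 3) and highest in BN-Lx/Cub (10.87 ± 0.50, SD, n = 3). BXH13/Cub thus held the lowest mean of 3 genes. Msmo1 was lowest in HXB17/Ipcv (12.20 ± 0.02, SD, n = 3) and highest in SHR/OlaIpcv (12.70 ± 0.09, SD, n = 2), and Fdft1 in COP/CrCrl (11.94 ± 0.05, SD, n = 2) and highest in SS/JrHsd (12.26 ± 0.07, SD, n = 3). Dhcr7 was lowest in FHH/EurMcwi (9.96 ± 0.08, SD, n = 3) and highest in BXH5/Cub (10.47 ± 0.14, SD, n = 3), and Lss in SHRSP/A3NCrl (10.35 ± 0.12, SD, n = 2) and highest in HXB29/Ipcv (11.23 ± 0.02, SD, n = 3). The SDs show how far the animals of each such strain lay from each other, and only the strains named with a call differed from the mean of the others by the test.

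As a description over the 8 genes, strains with 2 or more animals were ordered by their mean z-score. The lowest were BXH13/Cub (-1.72), COP/CrCrl (-1.42), BXH10/Cub (-1.41), LEXF11/Stm (-1.29) and LEXF1C/Stm (-0.91). The highest were HXB7/Ipcv (1.59), HXB5/Ipcv (1.34), SHR/OlaIpcv (1.10), HXB31/Ipcv (1.10) and BXH5/Cub (1.03). In 3 of the 74 strains all 8 genes lay above their mean over strains and in 6 all 8 lay below it. Lss did not always go with the others: COP/CrCrl was low in 7 genes with an Lss z-score of 0.55, and SHR/OlaIpcv was high in 6 with an Lss z-score of -1.09.

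**Figure D2:**
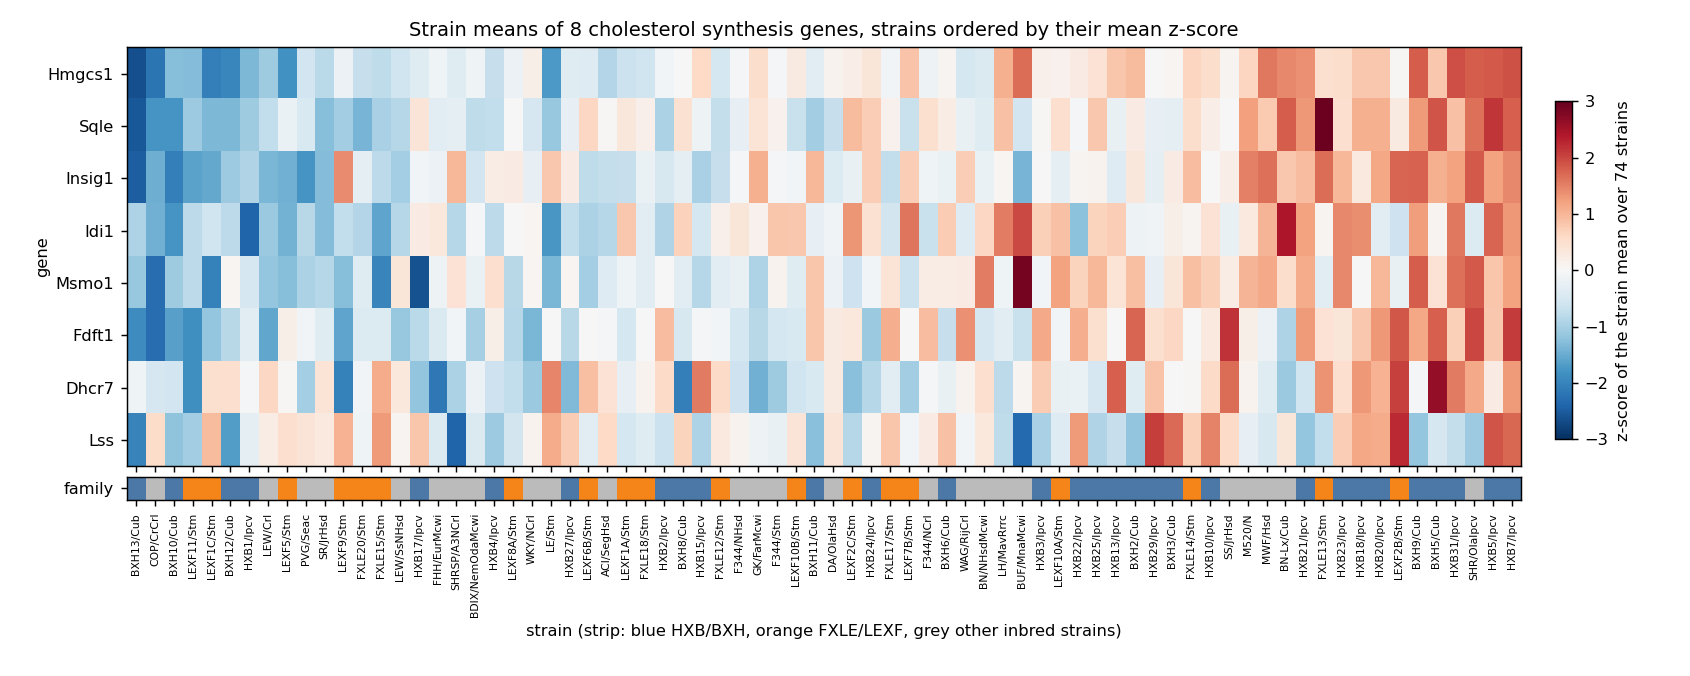
Strain means of the 8 genes as z-scores over 74 strains (colour scale from -3 to 3), strains ordered from left to right by the mean of their 8 z-scores, with their family in the strip. From BXH13/Cub (-1.72) to HXB7/Ipcv (1.59) the rows change from blue to red, most closely with this order in Hmgcs1 (r of 0.87 with the mean z-score, of which each gene is a part) and least in Lss (0.25).

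Named strains were compared next. In BN-Lx/Cub minus SHR/OlaIpcv, the parents of HXB/BXH, 0 of 8 genes were called, beside 4.51% of all genes (limma, 4 of 8 at an unadjusted p under 0.05). Lss differed by 0.28 ± 0.11 (SE, adjusted p = 0.113) and Fdft1 by -0.21 ± 0.08 (adjusted p = 0.106). In F344/Stm minus LE/Stm 0 of 8 were called, beside 0.796% (limma, 0 of 8 at an unadjusted p under 0.05), with LE/Stm as the single animal that stood apart, whose spread is assumed to be that of other strains. In SHR/OlaIpcv minus WKY/NCrl, the hypertensive strain and its usual control, 0 of 8 were called, beside 0.825% (limma, 5 of 8 at an unadjusted p under 0.05). There Fdft1 had the lowest adjusted p of the 8 and was not called (0.24 ± 0.08, adjusted p = 0.164 by limma). It measured 12.22 and 12.27 in SHR/OlaIpcv and between 11.99 and 12.03 in the 3 animals of WKY/NCrl. The first and the last of these comparisons share the SHR/OlaIpcv animals.

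A difference between the 3 families was called in 0 of 8 genes (beside 0% of all genes, limma over strain means, 1 of 8 at an unadjusted p under 0.05). With batch as covariates 6 of 8 were called, beside 72.4% of all genes, so that most of the table moved with that choice. Strain means adjusted for batch share the error of the batch estimates, and the test took them as independent. That count therefore cannot be read as a difference between families. The sequencing batch, given strain, was called in 0 of 8, beside 0.671% of all genes (limma, 0 of 8 at an unadjusted p under 0.05). Families and batches overlap in part, and where a batch holds strains of 1 family they cannot be told apart. By the study's methods HXB/BXH and its parental strains came from an institute in Prague as tissue kept in liquid nitrogen. Its other inbred strains came from commercial suppliers and were put in RNAlater. Source and storage thus cannot be told apart from these groups, nor from strain in SHR/OlaIpcv minus WKY/NCrl. The methods do not cover strains added later.

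The second question was whether the genes moved together. Over the 74 strain means the median Pearson r of the 28 gene pairs was 0.45 (median Spearman rho 0.47), with 25 of 28 positive, and this median lay above 95.6% of all gene pairs of the table. Over the deviations of 192 animals from their strain means it was 0.42 (rho 0.39), with 19 of 28 positive, above 92.4% of pairs. By family, 28 of 28 pairs were positive over 30 HXB/BXH strains, 21 over 19 FXLE/LEXF strains and 18 over 25 other inbred strains. The points share libraries, scaling and batches, so these values describe the table and carry no p.

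Hmgcs1, Sqle, Insig1, Idi1 and Msmo1 were positively related in every pair, with r from 0.43 to 0.76 over strains and from 0.55 to 0.79 within strains; these 5 were set apart after the values were seen. The closest pair over strains was Hmgcs1 with Sqle (0.76) and within strains Hmgcs1 with Idi1 (0.79). Fdft1 too was positive with each of the 5, from 0.19 to 0.55 over strains and from 0.03 to 0.51 within strains, where Idi1 was the lowest. The 9 negative pairs within strains all held Dhcr7 (4 of its 5 pairs with these genes) or Lss (5 of 5), down to -0.56 for Idi1 with Lss. Over strains 3 pairs were negative, the lowest being Lss with Msmo1 (-0.22). Dhcr7 was related to Fdft1 at 0.65 within and 0.52 over strains. Lss was related to Dhcr7 at 0.61 within and 0.18 over strains, and to Fdft1 at 0.37 and 0.14, so that over strain means it went weakly with either.

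Each gene was then fitted on Hmgcs1. Within strains all 7 other genes were called, 5 positive and 2 negative, beside 28.7% of all genes called positive, 34.1% called negative and 62.7% called in either direction. The slopes in log2 per log2 of Hmgcs1 (± SE, 197 animals, limma) were 1.65 ± 0.11 for Idi1, 0.72 ± 0.07 for Msmo1, 0.65 ± 0.06 for Sqle, 0.50 ± 0.05 for Insig1 and 0.17 ± 0.06 for Fdft1. They were -0.20 ± 0.09 for Dhcr7 (adjusted p = 0.0403) and -0.29 ± 0.08 for Lss (adjusted p = 4.6e-04). Idi1 thus moved by more than Hmgcs1 itself, and the last 3 slopes were small. The call of Fdft1 was lost without the animals numbered 1 or 2 (adjusted p = 0.163 and 0.627), that of Dhcr7 without those numbered 1 or 3 (0.185 and 0.964), and that of Lss without those numbered 3 (0.193). Over strain means 5 of 7 were called positive, beside 20.9% of all genes, and 0 negative, beside 22.7% (43.6% in either direction). Dhcr7 (0.12 ± 0.11) and Lss (0.01 ± 0.20) were the 2 not called. With so much of the table related to Hmgcs1, a call sets a gene little apart.

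Repeat libraries measured how far the values move with no change of animal. The table held 12 libraries of SHR/OlaIpcv animal 1 from 12 batches, 6 of animal 4 from 6 and 2 of BN-Lx/Cub animal 3 from 2. The labels list further libraries of SHR/OlaIpcv animal 1 without values there. Libraries with the same strain and animal number were read as repeats. In the 12 libraries of animal 1 Idi1 ran from 9.84 through a median of 10.15 to 10.81, and Lss from 10.18 through 10.60 to 10.73. The library of batch 11 was the highest for Idi1, Hmgcs1, Sqle and Insig1 and the lowest for Lss and Dhcr7. In animal 4 the library of batch 15 was the highest for Idi1 (10.81) and the lowest for Lss (10.51) and Dhcr7 (10.09), but Hmgcs1 (14.15) was there the second lowest of the 6, and Hmgcs1 (14.23), Sqle (11.32) and Insig1 (11.99) were highest in batch 17. The SD between libraries of these 2 animals, divided by the SD between animals of a strain, ran from 0.476 for Fdft1 to 1.09 for Sqle, with a median of 0.914. In 2 of the 8 genes, Sqle and Lss, repeat libraries spread more widely than animals of a strain. Both lean on the library of batch 11. In animal 1 it held 11.41 for Sqle, where the next highest was 11.12, and 10.18 for Lss, where the next lowest was 10.50. The ratios were not computed without it.

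**Figure D3:**
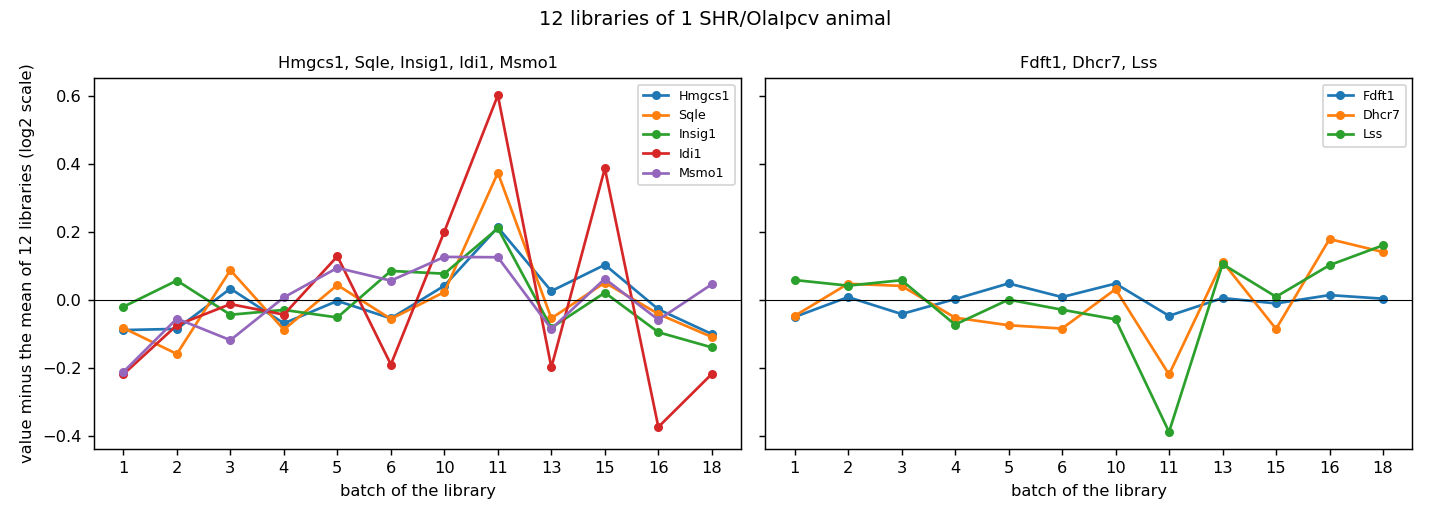
Value of each gene minus its mean over the 12 libraries of SHR/OlaIpcv animal 1 (log2 scale, vertical axis) by the batch of the library (horizontal axis), for Hmgcs1, Sqle, Insig1, Idi1 and Msmo1 (left) and Fdft1, Dhcr7 and Lss (right). In batch 11 Hmgcs1, Sqle, Insig1 and Idi1 are at their highest while Lss and Dhcr7 are at their lowest.

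Over the 20 repeat libraries, each centred on its animal, the 10 pairs of Hmgcs1, Sqle, Insig1, Idi1 and Msmo1 had r from 0.38 to 0.87. Dhcr7 and Lss were negative with all 5, down to -0.81 for Insig1 with Lss. Fdft1, which was positive with these genes between animals, ran from -0.26 to 0.30 with them, 4 of its 5 pairs being negative. The library of batch 11 weighed on these values. By Spearman rho, Hmgcs1 with Insig1 fell from an r of 0.49 to 0.18, Sqle with Insig1 from 0.55 to 0.20, and Hmgcs1 with Lss went from -0.54 to -0.18. Over the 19 libraries left without it, the 10 pairs of the 5 genes had r from 0.08 to 0.74, Hmgcs1 with Lss had -0.02 and Hmgcs1 with Dhcr7 0.14, while Insig1 with Lss had -0.64 and Idi1 with Dhcr7 -0.60. In a fit over these libraries with animal as a term, chosen after seeing the data, 2 of the 7 genes were called positive with Hmgcs1, Sqle (1.40 ± 0.26, SE, adjusted p = 0.0347 by limma) and Idi1 (2.15 ± 0.58, adjusted p = 0.0431), beside 2.37% of all genes, and 0 negative, beside 3.23%. Lss had a slope of -0.88 ± 0.36 (adjusted p = 0.104). Without the library of batch 11 neither was called (Sqle 1.08 ± 0.35, Idi1 1.54 ± 0.80, adjusted p = 0.98 by limma for both), beside 0% of all genes, with 1 of 7 at an unadjusted p under 0.05. The fit speaks of libraries of 3 animals and not of differences between animals.

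**Figure D4:**
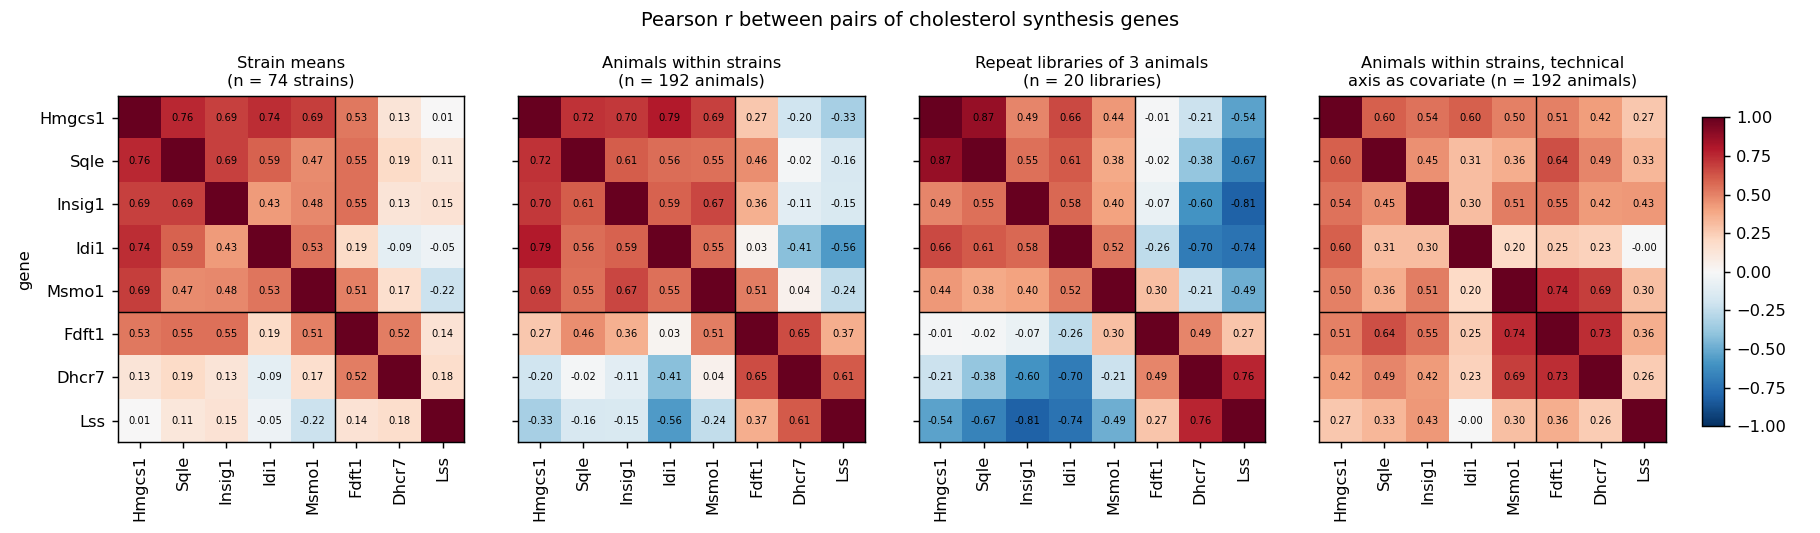
Pearson r of each pair of the 8 genes (colour and number) over strain means, over animals within strains, over repeat libraries and over animals within strains with the technical axis as a covariate; lines part the first 5 genes from Fdft1, Dhcr7 and Lss. Across the lines 9 of 15 pairs, all with Dhcr7 or Lss, are negative within strains, 14 over repeat libraries and 1 with the axis.

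The main axis of difference between repeat libraries was then used as a covariate, a choice made after seeing the data. This technical axis is the first principal component of the 20 centred libraries over 10421 genes above the median level, with the 8 genes left out, and it held 58.6% of their variance. Its SD was 13.7 between repeat libraries, 9.93 between animals of a strain and 6.70 between strain means, in units of the component. The axis was built on the repeat libraries, which favours a wide spread there, so these SDs are not compared. Within strains its r was 0.78 with Idi1, 0.65 with Hmgcs1, -0.16 with Fdft1, -0.67 with Dhcr7 and -0.72 with Lss, against a median absolute r of 0.37 over all genes. It held 60.9% of the variance of Idi1 within strains, 52.0% of that of Lss and 2.67% of that of Fdft1. Built without the library of batch 11, the axis had r of 0.993 with the first one over animals within strains.

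With this axis as a covariate the split in sign was gone from the slopes. All 7 slopes on Hmgcs1 within strains were called positive, beside 21.3% of all genes, and those of Dhcr7 (0.40 ± 0.08, SE, adjusted p = 2.2e-05 by limma) and Lss (0.22 ± 0.07, adjusted p = 0.0103) had turned sign. Within strains 27 of 28 pairs had a positive r, with a median of 0.43 that lay above 98.0% of all gene pairs. The closest pair was then Fdft1 with Msmo1 (0.74). Over strains the fit used strain means adjusted by each gene's slope on the axis within strains, and the axis was not itself a term. There 6 of 7 genes were called positive, beside 5.24% of all genes, and Lss was not (0.27 ± 0.24, adjusted p = 0.521 by limma). With the axis built without the library of batch 11 again 7 of 7 were called positive within strains, beside 19.3%, with 0.40 ± 0.09 for Dhcr7 and 0.24 ± 0.07 for Lss, and 6 of 7 over strains, beside 4.31%.

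Strain calls moved with the axis too. The strain effect was called in 8 of 8 genes, beside 48.8% of all genes, with an R2 of 0.895 for Lss and 0.630 for Dhcr7. Of the pairs of a strain and a gene 42 were called, beside 2.16%, and each of the 12 Lss calls, that of the single BUF/MnaMcwi animal included, was made again. The Idi1 calls of HXB1/Ipcv (adjusted p = 0.582 by limma) and BN-Lx/Cub (0.855) and the Sqle call of BN-Lx/Cub (0.763) were not. BN-Lx/Cub minus SHR/OlaIpcv was called for Lss (0.41, adjusted p = 6.1e-05).

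The genes outside the set whose pattern was most like it were found by their mean r with the 8, the 10 highest in each case. Over strains they included Ugt8, which makes the myelin lipid galactosylceramide (0.51), the sterol genes Cyp51 (0.50), Sc5d (0.49) and Nsdhl (0.46), Acat2, which joins acetyl-CoA units (0.48), the myelin claudin Cldn11 (0.46), Tmem117 (0.48), Dpy19l1 (0.46) and Washc5 (0.45). Within strains (192 animals) they included Acat2 (0.50), Ugt8 (0.50), the elongase Elovl7 (0.48), the desaturase Scd (0.44), the superoxide dismutase Sod2 (0.44) and the lysosomal thioesterase Ppt1 (0.44). With the axis they included Acat2 (0.62), Ugt8 (0.60), the transferrin gene Tf (0.58), Elovl7 (0.58), the connexin Gjb1 (0.57), Cnp (0.56) and Acss2, which makes acetyl-CoA (0.53). Acat2 and Ugt8 were thus among the 10 in all 3 cases.

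Of 10 oligodendrocyte markers 8 were called positive and 1 negative (Mag) with Hmgcs1 within strains, beside 28.7% and 34.1% of all genes, with a median slope of 0.57 against -0.05 over all genes. Over strains 9 were positive and 0 negative, beside 20.9% and 22.7%.

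The mean of these 10 markers ran over strains from 13.64 through 14.05 to 14.26, and its r with the mean z-score of the 8 genes was 0.72 (rho 0.73) over 74 strains. In the 5 strains with the lowest mean z-score it lay between 13.64 and 13.99, and in the 5 highest between 14.11 and 14.23, without overlap. These strains were picked as the extremes of the 8 genes, so with that r the lack of overlap adds no support. By gene, its r within strains was 0.73 with Hmgcs1, 0.65 with Sqle, 0.18 with Dhcr7 and 0.11 with Lss.

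The mean of the 10 markers was therefore entered as a covariate, again after seeing the data. Alone it left 4 of 7 slopes on Hmgcs1 called positive within strains, beside 30% of all genes, and those of Dhcr7 (-0.70 ± 0.11, SE, adjusted p = 2.6e-08 by limma) and Lss (-0.78 ± 0.10, adjusted p = 2.4e-12) were called negative. Over strain means adjusted by slopes on the marker mean within strains, it left 4 of 7 positive, beside 20.3%. The marker mean was not a term over strains, so its differences between strains were not held fixed. Together with the technical axis it left 1 of 7 within strains, Idi1 (1.01 ± 0.21, adjusted p = 2.7e-04), beside 9.67% of all genes. The other 6 slopes lay between -0.08 ± 0.12 for Lss and 0.32 ± 0.15 for Msmo1. Over strain means adjusted in the same way for both covariates, 3 of 7 were called positive, beside 0.235% of all genes. These were Sqle (0.64 ± 0.14, adjusted p = 0.0241 by limma), Insig1 (0.62 ± 0.13, 0.0234) and Fdft1 (0.47 ± 0.12, 0.0360).

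Blood genes also went with Hmgcs1 over strains. Of 5 of them, 4 globin genes and Alas2, which starts the making of haem in red cells, 4 were called positive and 0 negative, beside 20.9% and 22.7% of all genes, with a median slope of 1.06. With the technical axis 4 were positive, beside 5.24%, with a median of 1.89. Within strains 0 were positive and 2 negative. Their mean ran over strains from 11.21 through 11.84 to 12.75, with r of 0.38 (rho 0.25) with the mean z-score of the 8 genes. In the 5 strains with the lowest mean z-score it lay between 11.23 and 11.82, and in the 5 highest between 11.71 and 12.75, with overlap. This mean was entered as a covariate in the fit over animals, chosen after seeing the data. Slopes over strains then used strain means adjusted by each gene's slope on it within strains. Differences in blood genes between strains were thus not held fixed, and their part in the slopes over strains was not tested. On these means 5 of 7 slopes on Hmgcs1 were called positive over strains, beside 25.3% of all genes, and 5 of 7 within strains, beside 28.3%. The slopes over strains were then 0.72 ± 0.06 for Sqle and 1.33 ± 0.12 for Idi1, and the negative slope of Dhcr7 within strains was not called (-0.14 ± 0.08, adjusted p = 0.135 by limma).

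**Figure D5:**
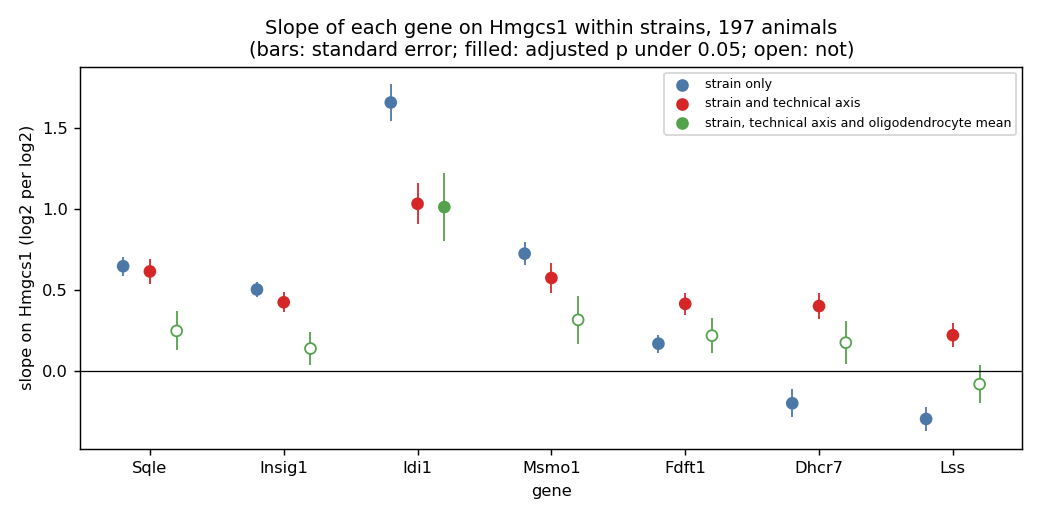
Slope of each gene on Hmgcs1 within strains (log2 per log2, vertical axis; bars are standard errors) over 197 animals, with strain alone, with the technical axis, and with the axis and the mean of 10 oligodendrocyte genes; filled points have an adjusted p under 0.05. With the axis Dhcr7 moves from -0.20 to 0.40 and Lss from -0.29 to 0.22, and with both covariates Idi1 alone stays filled.

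Other genes of the pathway and its surroundings are given by list, to be read beside 28.7% of all genes called positive and 34.1% called negative within strains, and 21.3% and 17% with the axis. Of 16 further pathway genes 8 were called positive and 4 negative with Hmgcs1 within strains, with a median slope of 0.10 against -0.05 over all genes. With the axis 11 were positive and 0 negative, with a median of 0.47 against 0.02. Over strains 7 were positive and 0 negative, beside 20.9% and 22.7% of all genes, and a strain effect was called in 6 of 16, beside 37.3%. Mvd, which makes the isoprenoid unit, had slopes of -0.82 and 0.85 without and with the axis, and Mvk, the mevalonate kinase, had -0.72 and 0.66. Both genes changed sign between the fits as Lss and Dhcr7 did, and each value was called. Cyp51, the lanosterol demethylase, with 0.80 and 0.82, and Sc5d, the sterol desaturase, with 0.80 and 0.54, were called positive in both.

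Of 12 regulators 4 were called positive and 7 negative with Hmgcs1 within strains, with a median slope of -0.18, and with the axis 2 and 3, with a median of -0.02. Srebf2 had slopes of -1.01 and -0.09 without and with the axis and Scap -0.80 and 0.13, neither called with it. Srebf1, the related factor of fatty acid synthesis, had -0.99 and 0.38 and was called in both, with opposite signs. Insig2, the relative of Insig1, had 0.47 and 0.37, called positive in both. Over strains 3 regulators were positive and 5 negative, beside 20.9% and 22.7% of all genes, and 0 and 0 with the axis.

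Of 9 uptake and transport genes 2 were called positive and 3 negative with Hmgcs1 within strains, with a median slope of -0.01, and with the axis 5 and 0, with a median of 0.32. Stard4, a sterol carrier, had slopes of 0.50 and 0.31, each called. Of 10 efflux and turnover genes 1 was called positive and 6 negative with Hmgcs1 within strains, with a median slope of -0.34, and with the axis 2 and 0, with a median of -0.0020. Apoe, the main apolipoprotein of the brain, had -0.90 and 0.57, both called, and Cyp46a1, which clears cholesterol from neurons, had -0.89 and -0.19, the second not called. Of 11 fatty acid synthesis genes 6 were called positive and 3 negative with Hmgcs1 within strains, with a median slope of 0.18, and with the axis 10 and 0, with a median of 0.43. Srebf1 is counted in this list as well as among the regulators. The desaturase gene Scd had 0.71 and 0.83 and the fatty acid synthase gene Fasn had -0.76 and 0.47, each called. In these 3 lists, as among the 16 pathway genes, 0 negative calls were made with the axis, beside the 17% of all genes. The same held for each list of cell type, blood and liver markers, so it does not set the lipid genes apart.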

How the data were processed

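Brain total RNA libraries of untreated rats were measured by rRNA-depleted sequencing. The authors deposited 1 value per gene and library, read here as log2-scale values scaled across libraries. For an earlier table their methods give trimming with cutadapt, alignment to strain-specific rn6 genomes with HISAT2, RSEM counts, removal of 1 unwanted factor and a regularised log. The steps and the build of the table used here, whose genes carry RefSeq symbols, are not given in the sources used here. The submitters' processing notes list cutadapt 1.9.1, Bowtie2 2.3.4.3 and 2.4.5, HISAT2 2.1.0 and 2.2.1, StringTie 1.3.5 and 2.2.1, and RSEM 1.3.1 and 1.3.3. The authors' strain means, reconstructed genes and transcripts were not used. Regularised logs pull low values together, and depth is unknown without counts.

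Libraries with the same strain and animal number were averaged to 1 animal. Groups came from the strain label, and batch from the batch label, which for 23 libraries differs from the title. Spike-ins (73) were left out and no low-value filter was set. Tests were limma 3.58.1 in R 4.3.3, with Benjamini-Hochberg adjustment over all genes at an FDR of 5%. The strain effect over all strains and the slopes on Hmgcs1 within strains were tried on simulated data, and the other tests were not. The simulated noise was independent between genes and held no batches and no technical axis. Means of strains were the units for families and for fits over strains. Covariates entered the fit over animals only, and these later fits used the adjusted strain means without the covariate as a term. Positions came from the deposited rn6 annotation, promoters from RefSeq GRCr8. Named were the 8 genes, at most 6 of each list by slope or r, the genes most like the 8, and the strains with extreme means, and some genes of these lists are not reported here. Members and lists were chosen with earlier results of these data known. The technical axis, the oligodendrocyte and blood covariates, the fit over repeat libraries, leaving the library of batch 11 out of it and of the axis, and the fits without SHR/OlaIpcv or without LEW/Crl and HXB17/Ipcv animal 2 were chosen after seeing the data. Alternatives were batch or animal number as covariates, 1 library per animal, centred libraries, other limma settings, a level filter, left-out animals, other anchors than Hmgcs1 and the older tables of 165 and 132 animals.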

Additional observations from a re-analysis of the deposited data

Results flagged for a closer look

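Hmgcs1 in animal 1 of BN-Lx/Cub measured 14.22 in its library of batch 3, while the other 3 libraries of the strain, from 2 animals, measured 13.91, 13.92 and 13.95. The gap to the nearest library was 0.859 of the whole range. The same library was the highest of the 4 for Idi1 (11.43), Sqle (11.21), Insig1 (11.95) and Msmo1 (12.70) and the lowest for Lss (10.75) and Dhcr7 (9.93). The animal had 1 library, and whether it or the library stood apart was not tested. Each of the 8 genes was looked at in the groups of 4 to 10 libraries, and chance alone marks about 1 in 20 groups.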

How the results depend on the processing

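The Lss strain effect over all strains and in HXB/BXH was called under every alternative run, and of all values for single genes under alternatives 1567 kept direction and side of the threshold, 87 gained a call, 60 lost one, 7 that were called turned sign, and 45 turned sign without a call in either fit. Without the animals of 1 number, genes with a strain effect numbered 1 to 6 (6 as reported), beside 14.4% to 35.2% of all genes. In HXB/BXH they numbered 1 to 3 (3), beside 8.04% to 19.1%, and in the inbred strains 0 to 1 (2), beside 5.75% to 17.2%. Calls of a strain and a gene numbered 4 to 18 (20), beside 0.577% to 1.54% of all such pairs. The median r ranged over 0.35 to 0.47 within and 0.41 to 0.48 over strains. These fits hold fewer animals. The median r, reported as 0.42 within and 0.45 over strains, was 0.26 and 0.67 in the v5 Ensembl table, 0.58 over strains with the batch of the title, 0.33 over strains with the technical axis, 0.28 and 0.27 with the oligodendrocyte mean, and 0.16 and 0.18 with both.

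In what follows the share of all genes called under the same alternative stands in brackets. With batch as covariates HXB/BXH gave 7 (32.1%), the inbred strains 1 (15.6%), families 6 (72.4%), single strains 35 (3.19%) and BN-Lx/Cub minus SHR/OlaIpcv 2 (31%). With the batch of the title these were 6 (26.5%) in HXB/BXH, 1 (15.6%) in the inbred strains and 6 (46.1%) between families. The inbred count was also 1 (17.8%) with 1 library per animal, 1 (18.6%) with centred libraries, 1 (18.3%) without LE/Stm and LEW/Crl, 1 (19.1%) without LEW/Crl and HXB17/Ipcv animal 2, 1 (18.1%) without SHR/OlaIpcv, 1 (22%) with the blood mean and 0 (14.9%) in the v6 Ensembl table. BN-Lx/Cub minus SHR/OlaIpcv gave 1 (4.13%) with centred libraries and 1 (2.21%) with the blood mean. The v6 table gave 1 (15.5%) in FXLE/LEXF (0 as reported) and 1 (0.949%) for SHR/OlaIpcv minus WKY/NCrl (0 as reported). The v5 Ensembl table gave 7 (23.5%) in HXB/BXH, 4 (34.4%) in the inbred strains, 66 (6.34%) for single strains, 1 (4.37%) and 3 (24.6%) for these 2 pairs, 7 (49.3%) between families, 3 (55.8%) for batch and a turned slope of Lss on Hmgcs1 of 0.0401. The cause was not tested.

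The technical axis gave 5 (23.5%) in HXB/BXH, 7 (40%) in the inbred strains, 42 (2.16%) for single strains, 1 (4.62%) for BN-Lx/Cub minus SHR/OlaIpcv and turned the slopes of Dhcr7 (0.40) and Lss (0.22). Built without the library of batch 11 it gave 5 (23.7%), 6 (40.1%), 42 (2.15%) and 1 (4.68%), with 0.40 and 0.24. The oligodendrocyte mean alone turned the slope of Fdft1 (-0.0879). With the axis and this mean the counts were 5 (25.4%), 6 (39.2%) and 50 (2.38%), 1 (5.36%) and 1 (4.75%) for the 2 pairs, 1 positive slope within (9.67%) and 3 over strains (0.235%), where 5 each were reported, and a Dhcr7 slope of 0.18. With Dhcr7 in place of Hmgcs1 the positive slopes called were 2 within (32.2%) and 1 over strains (6.06%), and with Lss 2 (32.2%) and 0 (0.0815%).

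Deviations from strain means were correlated at a mean r of 0.0236 between strains for animals with the same number and of -0.0114 for other numbers. In many HXB/BXH strains animals of the same number also share a batch. Leaving out a number thus also takes out libraries of particular batches. With a replicate block the inbred count was 1, with Fdft1 lost, the slope of Dhcr7 was not called, and other calls were as reported. F344/Stm minus LE/Stm has no value without LE/Stm.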

Other observations

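Further lists were fitted on Hmgcs1 within strains, where 28.7% of all genes were called positive and 34.1% negative, and 21.3% and 17% with the technical axis. Of 8 clock genes 0 positive and 7 negative calls were made (limma, FDR 5%), and 0 and 4 with the technical axis. Per2, a core repressor of the clock, had a slope of -0.57 and of -0.47 with the axis. Of 6 immediate early genes 0 positive and 5 negative calls were made, and 0 and 1 with the technical axis, with Egr1, a factor induced by neuronal activity, at -1.19 and -0.63. Of 5 genes of the glucocorticoid response, of which Per1 is also in the clock list, 1 positive and 3 negative calls were made, and 1 and 2 with the technical axis, with Fkbp5 at -0.38 and -0.32. The time of tissue collection is not in the labels, and its part in these values was not tested.

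Among markers of other cells, 6 astrocyte genes gave 2 positive and 1 negative calls and 3 and 0 with the technical axis, 5 microglia genes 2 positive and 3 negative and 3 and 0 with the technical axis, 5 neuron genes 1 positive and 2 negative and 1 and 0 with the technical axis, 4 genes of oligodendrocyte precursors 1 positive and 1 negative and 1 and 0 with the technical axis, and 3 of endothelium 0 positive and 1 negative and 1 and 0 with the technical axis. Liver genes gave 0 positive and 0 negative calls of 9 and 0 and 0 with the technical axis, and choroid plexus genes 0 positive and 0 negative of 4 and 0 and 0 with the technical axis. The lists share Ttr, and S100b is expressed beyond astrocytes.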
